A study of Equus caballus with 20 samples.

Results

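The mitochondrial ribosomal proteins are the genes whose symbol in the array's probe annotation reads Mrpl or Mrps followed by a number and at most 1 letter. The rule used names alone and no measured value. It found 94 probes of 70 genes among the 12187 gene symbols on the array, of which 46 encode proteins of the large subunit and 24 proteins of the small subunit. Mrps30 and Mrps18a are counted with the large subunit, where their proteins sit in spite of the name.

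The study examined recurrent exertional rhabdomyolysis (RER), a disorder of the horse in which muscle fibres stiffen and break down after exercise, in the French Trotter breed. Biopsies of gluteus medius, a muscle of the hindquarter, and longissimus lumborum, a muscle of the back, came from 5 RER horses with high plasma activities of muscle enzymes and from 10 control horses described as sound. RNA of each RER horse was hybridised on 2 dye-swapped oligonucleotide arrays per muscle against a pool of control RNA of the same muscle, which gave 20 arrays. No drug, diet or exercise test is given for either group, and age and sex are not given in the sources used here. A pool counts as 1 control sample, so no test below includes the spread among control horses.

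Mitochondria make a small set of respiratory chain proteins inside the organelle, on ribosomes of their own. The ribosomal RNAs come from mitochondrial DNA, whereas every protein of these ribosomes is encoded in the nucleus, made in the cytosol and imported. The small subunit reads the messenger RNA, and the large subunit joins amino acids and releases the chain through an exit tunnel at the inner membrane. Skeletal muscle depends on this machinery for oxidative capacity, and inherited defects of several members cause disease of muscle or heart in humans.

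Values are log2 ratios, where 0 means equal signal in both channels and 1 means 2-fold. The likely reading is RER horse over control pool, because channel 1 of all 20 arrays is labelled as RER RNA. The direction is not settled, since no label states it and 2 arrays with RER RNA in Cy3 and the same gluteus pool in Cy5, those of horses 2 and 4, correlated at -0.341 over all probes. That was the lowest of 40 correlations between arrays of the same muscle and dye, which ran up to 0.497 with 30 above 0. The dye-swapped arrays of the same RNA correlated above 0 in 6 of 10 pairs and below 0 in 4 (-0.206 and -0.268 for gluteus of horses 2 and 3, -0.269 and -0.322 for longissimus of horses 1 and 2). Turning 1 array of such a pair would change the size of a mean as well as its sign, and the closing section gives the members whose sign then turned. With every sign of the table turned at once, each value keeps its size and the counts above and below 0 change places. A ratio holds no absolute level, so members were compared with 0 and between horses, never with each other in abundance. In a biopsy, fewer cells of a type and less RNA per cell cannot be told apart.

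Arrays came in 2 kinds, named here by the number of measured probes. The dense kind (gluteus horses 1, 2 and 3, longissimus horses 1 and 2) had 22032 to 24050 values per array, and the sparse kind (all other horses of each muscle) 8966 to 17708. The number of arrays limits the precision. Longissimus horses 1 and 4 stood apart by their spread, with 5.37% and 17.6% of all features beyond 2-fold, against 0.477% to 4.24% in the other 8 combinations of horse and muscle. Markers of skeletal muscle were measured for 11 to 15 of 17 symbols per horse and muscle, although ratios cannot show their level. Symbols of a gene that differ in case alone, such as Ckm and CKM, count separately here. Medians of 14 fibroblast and matrix marker symbols, counted in the same way, were 2.59 in gluteus horse 4, against -0.54 to 0.20 in the other gluteus horses. The part of these markers in the results was not tested.

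Whether a member was measured followed the kind of array. Of the 73 member probes with a value on at least 1 dense array, between 97.3% and 100% had a value on a given dense array. Between 43.8% and 79.5% of them had a value on a given sparse array. All such probes of the whole array reached 91.4% to 99.8% and 35.9% to 71.9%. The remaining 21 member probes, all annotated by expressed sequence tags rather than RefSeq transcripts, had no value on any dense array. On sparse arrays 20 of them were measured on all 10, and the tag-based probe of Mrpl3 on 5. Of the 252 such probes of the whole array, 251 had no value on any dense array. Of the 45 members that could be tested, 23 average different probes in different horses, and 22 rest on the same probe or probes throughout. The 23 include Mrpl33 and Mrps5, which have no tag-based probe and instead lack 1 of their 2 probes in horses on sparse arrays.

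A member was tested where at least 4 of 5 horses had a value in each muscle, which 45 of 70 did (31 of the large and 14 of the small subunit). The 25 untested members are Mrpl9, Mrpl18, Mrpl24, Mrpl27, Mrpl30, Mrpl35, Mrpl36, Mrpl40, Mrpl43, Mrpl44, Mrpl49, Mrpl50, Mrpl52 and Mrpl55, and Mrps2, Mrps9, Mrps10, Mrps11, Mrps12, Mrps14, Mrps16, Mrps23, Mrps26, Mrps30 and Mrps35. All 25 had values in both longissimus horses on dense arrays. In longissimus horse 1 several of them had the most negative ratios of the whole family, with Mrps12, the small subunit protein of the decoding centre, at -5.45, Mrps10 at -3.44, Mrps23 at -3.01 and Mrpl30 at -2.97. Longissimus horse 2 had 0.03 for Mrps12, 0.13 for Mrps10, 0.03 for Mrps23 and -0.14 for Mrpl30. In horse 1 the Cy3 arrays of Mrps10, Mrps23 and Mrpl30 stood at -6.6388, the floor of the table after centring, while the Cy5 array of the same RNA gave -0.24 for Mrps10, 0.62 for Mrps23 and 0.70 for Mrpl30. Of these genes Mrps12 alone was low on both arrays, at -4.30 on Cy3 and -6.60 on Cy5. The Cy5 value of Mrps12 is the floor of that array after centring. Mrpl36, also untested, was below 0 on both arrays of horse 1, at -1.09 on Cy3 and -2.61 on Cy5.

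**Figure D1:**
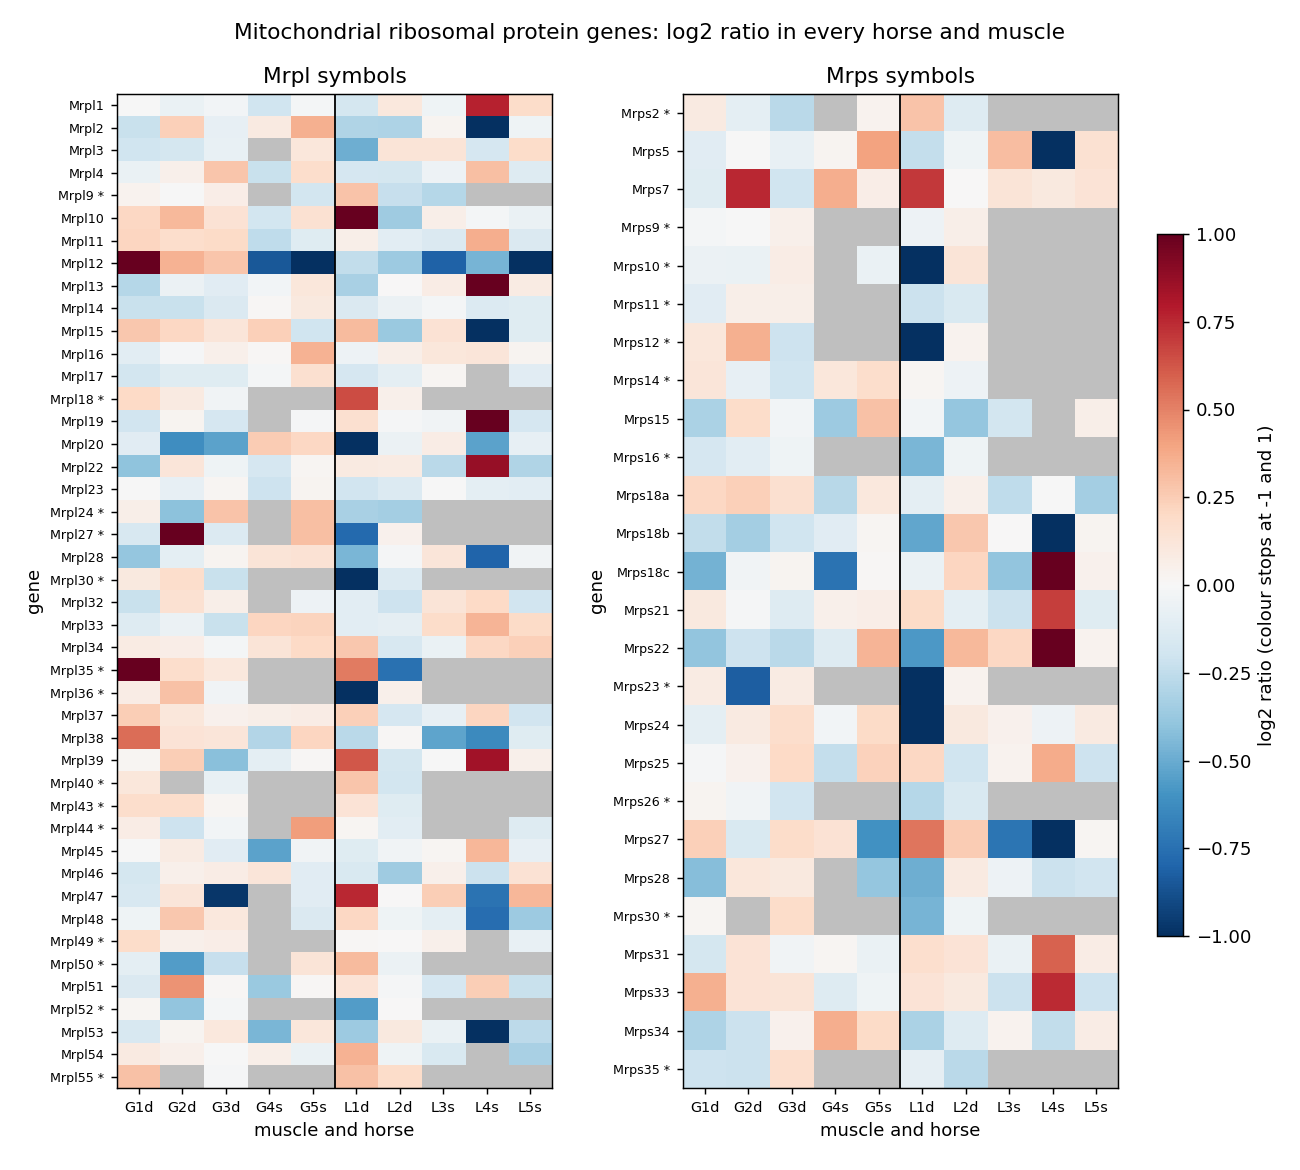
Log2 ratio of each of the 70 genes (rows, with the Mrpl symbols on the left and the Mrps symbols on the right) in gluteus (G) and longissimus (L) of horses 1 to 5, with d for dense and s for sparse arrays. Colours stop at -1 and 1, grey marks no value and an asterisk marks the 25 untested genes; strong colours gather in L1 and L4, where 8 and 10 members lay beyond 2-fold.

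In gluteus no mitochondrial ribosomal protein gene passed the test against the control pool. Of 45 members, 20 had a mean above 0 and 25 below, against 46.1% and 53.9% of all features, and their median log2 ratio was -0.0136 against -0.0096. Member means ran from -0.28 for Mrpl47 to 0.17 for Mrps7. With limma and Benjamini-Hochberg adjustment over 10176 features, 0 members were called at an adjusted p under 0.05, where the background was 0% of all features and every member's adjusted p was 1. Without adjustment 0 members had a p under 0.05 as well, against 0.629% of all features above 0 and 1.21% below. The 95% confidence interval excluded 2-fold either way for 45 of 45 members and for 96.8% of all features.

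Longissimus gave the same counts with a wider range. Again 20 members had a mean above 0 and 25 below (49% and 51% of all features), the median was -0.0430 against -0.0032 over all features, and member means ran from -0.64 for Mrpl20 to 0.32 for Mrps22. The test called 0 members, with a background of 0% and a lowest adjusted p of 0.827. Before adjustment 4 members had a p under 0.05, all with means below 0 and all of the large subunit, which is 8.89% of the members, against 2.99% of all features. These were Mrpl38, Mrpl2, Mrpl12 and Mrpl53, and none was above 0, where all features had 1.2%. The interval excluded 2-fold either way for 43 of 45 members, the exceptions being Mrpl12 and Mrpl20, and for 94.5% of all features.

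**Figure D2:**
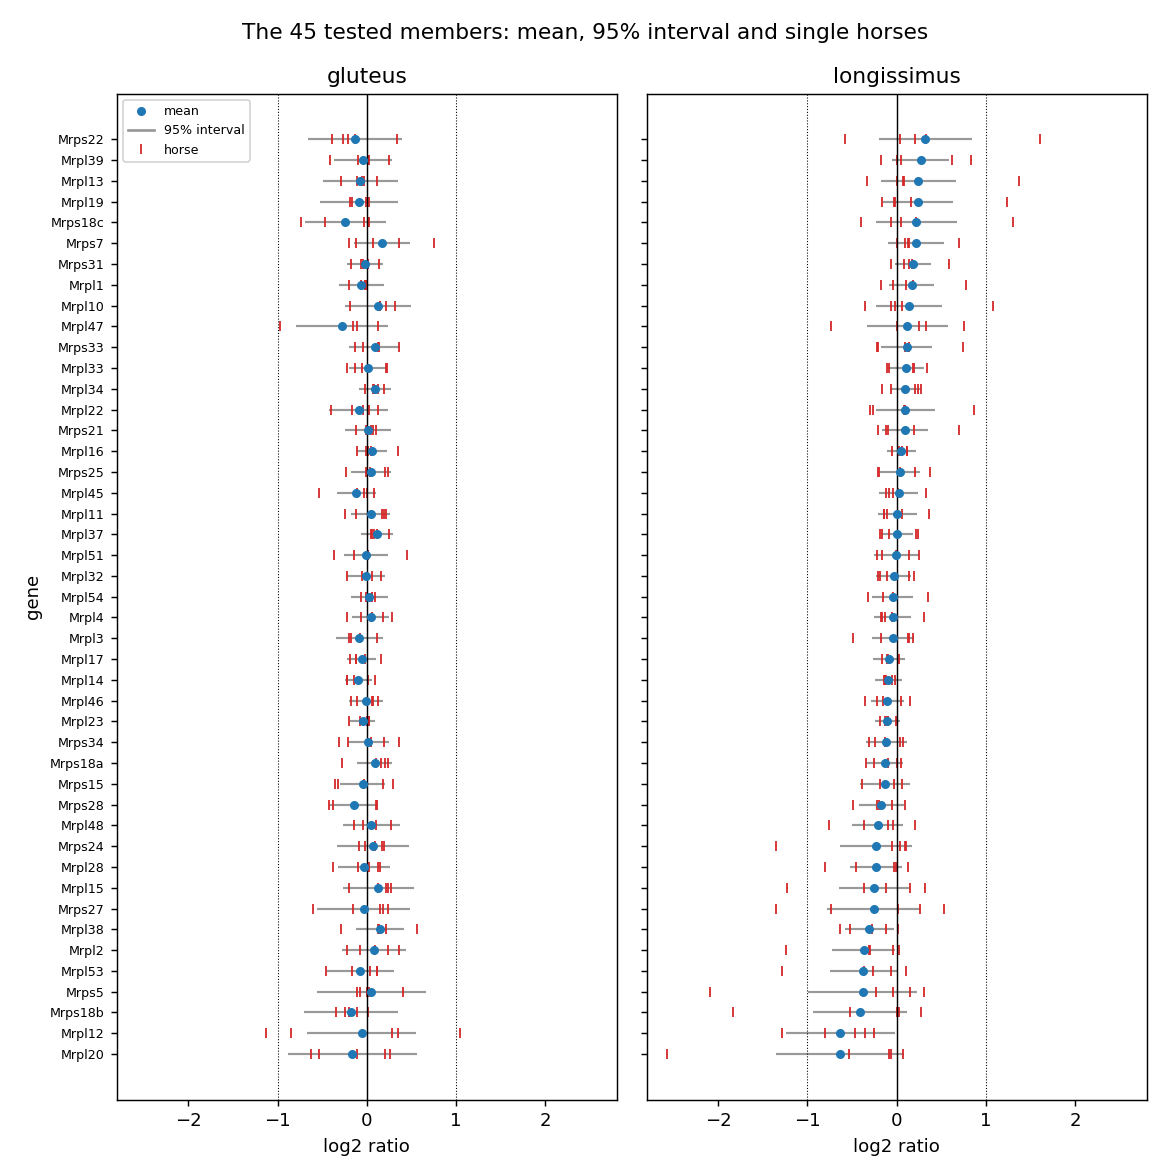
Mean log2 ratio (blue points), 95% confidence interval of the moderated fit (grey lines) and single horses (red ticks) of the 45 tested members in gluteus (left) and longissimus (right), ordered by the longissimus mean. Dotted lines mark 2-fold either way; single horses reach further in longissimus, down to -2.58 for Mrpl20 and up to 1.61 for Mrps22.

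Few members kept 1 sign across horses. In gluteus 1 member was above 0 in every horse with a value (Mrpl37) and 1 below (Mrpl1), against 5.5% and 4.23% of all features. In longissimus 1 was above (Mrps7) and 3 below (Mrpl12, Mrpl23 and Mrpl14), against 1.96% and 3% of all features. Across both muscles 0 members had 1 sign in every value, where the background was 0.157%.

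The stalk of the large subunit, which draws translation factors to the ribosome, is built from Mrpl12 on a base of Mrpl10. Mrpl12 showed the widest range of any tested member in gluteus, with 1.05, 0.35 and 0.28 in horses 1 to 3 and -0.85 and -1.13 in horses 4 and 5. In longissimus it measured -0.25, -0.36, -0.81, -0.46 and -1.28 in horses 1 to 5. Gluteus thus divided between positive values in the 3 horses on dense arrays and negative values in the 2 on sparse arrays, whereas in longissimus all 5 horses lay below 0.

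The mean of Mrpl12 was -0.06 ± 0.28 in gluteus and -0.63 ± 0.28 in longissimus (SE, n = 5 each), with limma's unadjusted p of 0.834 and 0.0437 and adjusted p of 1 and 0.827. Its longissimus mean was -0.26 (unadjusted p = 0.531, limma) with the Cy3 array turned in pairs that correlated below 0, and -0.41 (unadjusted p = 0.316, limma) with Cy5 arrays alone. The gluteus mean was above 0 without horse 4 (0.14) or horse 5 (0.21). Longissimus horses on dense arrays averaged -0.30, and those on sparse arrays -0.85. A single probe represents the gene, and it was below 0 on all 10 sparse arrays, between -1.41 and -0.45, a pattern met by 3.26% of the 6626 probes measured on all of them and by 1 of 42 member probes. On the 10 dense arrays it was above 0 on 6 and below on 4, and the dye-swapped arrays of the same RNA disagreed in sign in gluteus horses 2 and 3 and in longissimus horses 1 and 2. Those sparse arrays carry RNA of 3 horses, so they are not 10 independent measurements.

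**Figure D3:**
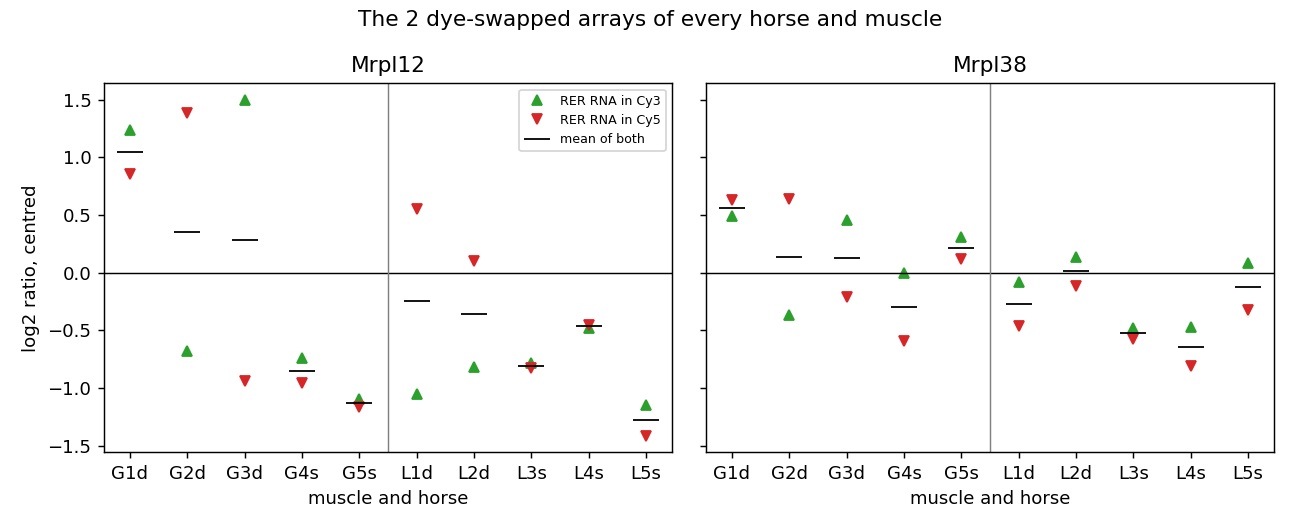
Centred log2 ratio of Mrpl12 (left) and Mrpl38 (right) on each array, by muscle (G gluteus, L longissimus), horse and kind of array (d dense, s sparse), with triangles for the dye that carried RER RNA and bars for the mean of both arrays. For Mrpl12 the arrays of a pair lie close together on sparse arrays, all below 0, and far apart in G2 and G3.

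Mrpl10 had 0.21, 0.32, 0.15, -0.19 and 0.15 in gluteus horses 1 to 5, a mean of 0.13 ± 0.17 (SE). In longissimus its values were 1.08, -0.35, 0.06, -0.02 and -0.07. Horse 1 alone was high there, and no value of horses 2 to 5 exceeded 0.06. The high value came from 1 of the 2 arrays of the pair, 2.60 on Cy5 against -0.44 on Cy3. Dye-swapped arrays of Mrpl10 had opposite signs in every longissimus horse and in gluteus horses 2, 4 and 5. Gluteus horse 4 was the only gluteus value below 0. The 2 probes of Mrpl10 were never measured together, and horses on sparse arrays rest on a different probe from those on dense arrays.

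The central protuberance of the large subunit contains Mrpl38, a protein with no bacterial counterpart. Its gluteus values were 0.56, 0.13, 0.12, -0.29 and 0.21 in horses 1 to 5, against -0.27, 0.01, -0.53, -0.64 and -0.12 in longissimus. By the mean of both arrays, gluteus was higher than longissimus within every horse, although the 2 sets of values overlapped. In horse 2 the Cy3 arrays went the other way, at -0.37 in gluteus and 0.14 in longissimus. The Cy5 arrays of that horse gave 0.64 and -0.11. The share of all features with gluteus higher in every horse was not computed. Mrpl38 had the smallest unadjusted p of any member in both longissimus (-0.31 ± 0.12, SE, p = 0.0302, adjusted p = 0.827, limma) and the difference between muscles (0.46 ± 0.18, SE, p = 0.0248, adjusted p = 1, limma). That difference was tested without pairing by horse, so its p does not measure the agreement within horses. In gluteus horses on sparse arrays alone the mean of Mrpl38 was -0.04, against 0.27 in those on dense arrays, and without horse 1 the gluteus mean was 0.04.

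Mrpl23, a protein at the rim of the tunnel, had -0.0014, -0.08, 0.02, -0.20 and 0.03 in gluteus horses 1 to 5, and -0.19, -0.14, -0.0070, -0.10 and -0.11 in longissimus, where its mean was -0.11 ± 0.063 (SE). Mrpl14, at the face that meets the small subunit, had -0.22, -0.22, -0.15, 0.01 and 0.10 in gluteus, and -0.14, -0.06, -0.02, -0.14 and -0.12 in longissimus, where its mean was -0.09 ± 0.068 (SE). Both sets stayed below 0 in all 5 longissimus horses by amounts no larger than 0.19, and neither passed the test (unadjusted p of 0.117 for Mrpl23 and 0.195 for Mrpl14, limma).

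Mrpl2, next to the site of peptide bond formation, had -0.22, 0.24, -0.08, 0.09 and 0.36 in gluteus and -0.30, -0.31, 0.03, -1.24 and -0.04 in longissimus. Its longissimus mean was -0.37 ± 0.16 (SE, unadjusted p = 0.0428, adjusted p = 0.827, limma). Mrpl53, without a bacterial counterpart, had -0.16, 0.03, 0.11, -0.45 and 0.12 in gluteus and -0.36, 0.10, -0.07, -1.28 and -0.26 in longissimus, with a longissimus mean of -0.37 ± 0.17 (SE, unadjusted p = 0.0493, adjusted p = 0.827, limma). For both genes the lowest value was that of longissimus horse 4, the library with the widest spread, and the other 4 horses lay between -0.36 and 0.10. Without horse 4 the longissimus mean was -0.15 for each of them. That horse's value of Mrpl2 averages 2 probes, at -0.13 and -2.35.

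Mrpl47, the counterpart of a bacterial protein near the tunnel exit, had the lowest gluteus mean at -0.28 ± 0.23 (SE, n = 4). Its values were -0.16, 0.12, -0.97 and -0.11 in gluteus horses 1, 2, 3 and 5, so horse 3 set the mean, which was -0.05 without it. That low value came from 1 of the 2 arrays of the pair, -2.22 on Cy3 against 0.28 on Cy5. In longissimus the gene had 0.75, 0.0035, 0.25, -0.74 and 0.33, where the value of horse 1 averages 1.52 on Cy3 and -0.02 on Cy5.

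Mrpl20, whose bacterial counterpart binds ribosomal RNA early in assembly, had the lowest longissimus mean, -0.64 ± 0.33 (SE). Values were -0.11, -0.62, -0.53, 0.25 and 0.21 in gluteus and -2.58, -0.06, 0.07, -0.54 and -0.08 in longissimus. Longissimus horse 1 decided that mean: its Cy3 array stood at -6.6388, which is the floor of the table after centring, and its Cy5 array at 1.49. Without horse 1 the longissimus mean was -0.15, and with floor values left out it was also -0.15.

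Mrpl37, a large subunit protein without a bacterial counterpart, was above 0 in all gluteus horses at 0.25, 0.11, 0.05, 0.06 and 0.08, a mean of 0.11 ± 0.081 (SE, unadjusted p = 0.212, limma). The value of gluteus horse 4 averages 2 probes of opposite sign, at -0.19 and 0.31. Dye-swapped arrays had opposite signs for the tag-based probe of Mrpl37 in gluteus horses 4 and 5, and for its other probe in gluteus horses 2 and 3. In longissimus the values of Mrpl37 were 0.24, -0.17, -0.08, 0.22 and -0.19. Mrpl1, of the mobile stalk beside the exit site of transfer RNA, was below 0 in all gluteus horses at -0.0032, -0.07, -0.03, -0.20 and -0.02, with a mean of -0.06 ± 0.12 (SE). The dye-swapped arrays behind these Mrpl1 values had opposite signs in gluteus horses 1, 2, 3 and 5. Gluteus horses 4 and 5 rest on a different Mrpl1 probe from horses 1 to 3. In longissimus Mrpl1 had -0.18, 0.10, -0.04, 0.77 and 0.19. The single gluteus sign of both genes was not kept in longissimus, and values of the muscles overlapped.

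The 3 highest longissimus means belonged to Mrps22, Mrpl39 and Mrpl13. Mrps22, a small subunit protein without a bacterial counterpart that is mutated in human mitochondrial disease, had -0.39, -0.21, -0.27, -0.13 and 0.34 in gluteus, and -0.58, 0.33, 0.21, 1.61 and 0.04 in longissimus, with a longissimus mean of 0.32 ± 0.24 (SE). Mrpl13, a large subunit protein shared with bacteria, had -0.33, 0.0018, 0.07, 1.37 and 0.08 in longissimus, a mean of 0.24 ± 0.19 (SE). Horse 4 held the highest value of each, and without it the longissimus means were -0.0020 for Mrps22 and -0.04 for Mrpl13. The Mrpl13 value of longissimus horse 4 rests on its tag-based probe alone. Its other probe, without a value there, had a longissimus mean of 0.03. Where both Mrpl13 probes were measured together, 3 of 4 values had opposite signs.

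Mrpl39, a large subunit protein without a bacterial counterpart, had 0.02, 0.25, -0.42, -0.10 and 0.01 in gluteus, with both signs present. In longissimus its values were 0.62, -0.17, -0.0014, 0.84 and 0.05, a mean of 0.27 ± 0.15 (SE). Its 2 high longissimus values were those of horses 1 and 4, and without those horses the mean was -0.04.

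Of the small subunit, Mrps7, a protein of the head near the path of the messenger RNA, was highest in gluteus and above 0 in all longissimus horses. It had -0.12, 0.76, -0.20, 0.36 and 0.07 in gluteus, and 0.70, 0.0003, 0.13, 0.10 and 0.14 in longissimus. The means were 0.17 ± 0.14 in gluteus and 0.21 ± 0.14 in longissimus (SE, n = 5 each). High values in gluteus horse 2 and longissimus horse 1 each came from 1 of the 2 arrays of the pair, 1.66 on Cy5 against -0.15 on Cy3 in the first and 1.68 on Cy3 against -0.28 on Cy5 in the second. The gluteus mean of Mrps7 was 0.03 without horse 2, and the longissimus mean 0.09 without horse 1.

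The mean of both muscles gave Mrps7 the smallest unadjusted p of any member, 0.19 ± 0.076 (SE, p = 0.0397, adjusted p = 0.999, limma). Of 45 members it was 1 at an unadjusted p under 0.05 with a value above 0, against 0.517% of 10063 features, and 0 members lay below 0 at that level, against 1.38%. None was called after adjustment, with a background of 0%. The horses contribute 3 different sets of Mrps7 probes. Over all members the mean of both muscles was above 0 for 18 and below for 27 (45.3% and 54.7% of all features), with a median of -0.0215 against -0.0096 over all features. Its interval excluded 2-fold either way for 45 of 45 members and 97.9% of all features.

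Mammals carry 3 versions of the bacterial small subunit protein S18, made from Mrps18a, Mrps18b and Mrps18c. Mrps18b had -0.24, -0.34, -0.20, -0.11 and 0.02 in gluteus, and -0.52, 0.27, 0.0034, -1.83 and 0.02 in longissimus. Mrps18c had -0.47, -0.03, 0.03, -0.74 and 0.01 in gluteus, and -0.06, 0.21, -0.40, 1.30 and 0.05 in longissimus. In longissimus horse 4 these 2 genes stood on opposite sides of 0 by more than 2-fold each, whereas both had negative gluteus means. The Mrps18b value of longissimus horse 4 rests on its tag-based probe alone. Both probes of Mrps18b were measured together in 3 combinations of horse and muscle, with opposite signs in all 3. Its other probe, without a value in longissimus horse 4, had a longissimus mean of -0.06.

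Gluteus means were -0.18 ± 0.24 for Mrps18b and -0.24 ± 0.21 for Mrps18c, and longissimus means -0.41 ± 0.24 and 0.22 ± 0.21 (SE). Without horse 4 the longissimus mean of Mrps18b was -0.06 and that of Mrps18c -0.05, and without horses 1 and 4 that of Mrps18b was 0.10. Mrps18a, whose protein lies in the large subunit, averaged 0.09 ± 0.090 in gluteus and -0.13 ± 0.090 in longissimus (SE). None of the 3 genes passed the test in either muscle.

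Comparing the muscles, 26 members had a higher mean in gluteus and 19 a lower one, and the median of the gluteus minus longissimus difference was 0.0223, against 0.0027 over all features, 50.7% of which were higher and 49.3% lower in gluteus. The test of the difference called 0 of 45 members, with a background of 0%. Before adjustment Mrpl38 alone had a p under 0.05, 2.22% of the members, against 0.796% of all features with gluteus higher, and 0 members with gluteus lower, against 1.02%. No member had gluteus and longissimus values that did not overlap, where 0.334% of all features had gluteus above and 0.423% gluteus below without overlap. The interval of the difference excluded 2-fold either way for 39 of 45 members and for 89.1% of all features, so a 2-fold difference between muscles was not bounded for the other 6.

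The subunits gave like counts. Small subunit members were above 0 for 7 and below for 7 of 14 in each muscle, with medians of -0.0048 in gluteus and -0.0381 in longissimus. Large subunit members were above 0 for 13 and below for 18 of 31 in each muscle, with medians of -0.0136 and -0.0430. The 28 tested members sorted as having a counterpart in the bacterial ribosome had medians of -0.0418 in gluteus and -0.0389 in longissimus. The 15 sorted as having none had -0.0073 and -0.0030. Mrps18a and Mrps18b, also versions of a bacterial protein, were placed in neither group. Called members numbered 0 in each of these groups, and the difference between groups was not tested.

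Probes of the same member often disagreed in sign. For 16 pairs of a tag-based probe and another probe of the same member, 59 values in the same horse and muscle could be set side by side, and 31 of them (52.5%) had opposite signs. Their median absolute difference, taken per pair and then over pairs, was 0.149. The most distant pair belonged to Mrpl15, of the large subunit, whose probes were 4.31 apart on the log2 scale in longissimus horse 4.

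Other pairs behaved differently from each other. Both probes of Mrpl33, a large subunit protein, had the same sign in 5 of 5 horse and muscle combinations, and both probes of Mrps5, a small subunit protein near the entry of the messenger RNA, had opposite signs in 5 of 5. For 6 pairs, those of Mrpl1, Mrpl10, Mrpl20, Mrpl22, Mrps33 and 1 pair of Mrpl15, the probes were never measured together. Mrpl33 was also the only member with a probe above 0 on all 10 sparse arrays, from 0.02 to 0.57, where 2.1% of the 6626 probes measured on all of them were. That probe was above 0 on 2 of 10 dense arrays.

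**Figure D4:**
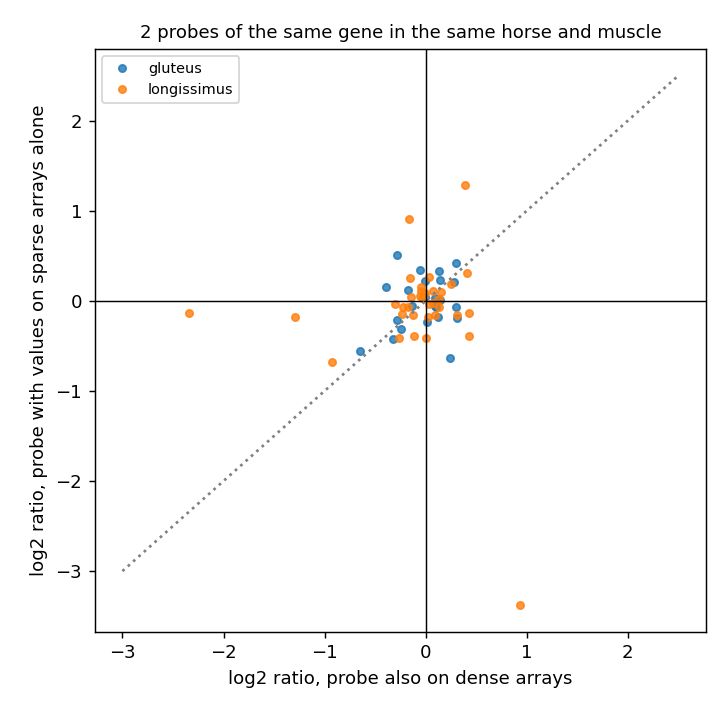
Each point is 1 member gene in 1 horse and muscle, with the log2 ratio of the probe also measured on dense arrays (horizontal) and of the probe measured on sparse arrays alone (vertical), for 59 values of 16 pairs. The dotted line marks equal ratios; 31 points have opposite signs, and the lowest point is Mrpl15 in longissimus horse 4.

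Within the horses, the family's centre stayed near 0. Medians over the measured members (40 to 70 genes) were -0.02, 0.05, -0.0081, -0.03 and 0.08 in gluteus horses 1 to 5, and -0.10, -0.04, -0.0070, 0.05 and -0.08 in longissimus. The widest interquartile ranges were 0.53 in longissimus horse 1 and 0.89 in longissimus horse 4, against 0.20 to 0.32 in the other 8, and the same 2 libraries had 0.55 and 0.80 over all features. In those 2 libraries the members spread to both sides, with 29 above and 41 below 0 in horse 1 and 21 each in horse 4.

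Cytosolic ribosomal proteins, the counterparts that serve translation in the cytosol, had medians further from 0 in most horses. Their medians were -0.20, -0.37, -0.43, 0.46 and 0.25 in gluteus and -0.19, -0.02, -0.0098, 0.44 and 0.17 in longissimus. In gluteus these medians were negative in the 3 horses on dense arrays and positive in the 2 on sparse arrays, a division that the mitochondrial medians did not follow. Of 61 tested cytosolic genes, 15 were above and 46 below 0 in gluteus and 30 above and 31 below in longissimus, with 0 called. The difference between the families was not tested.

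**Figure D5:**
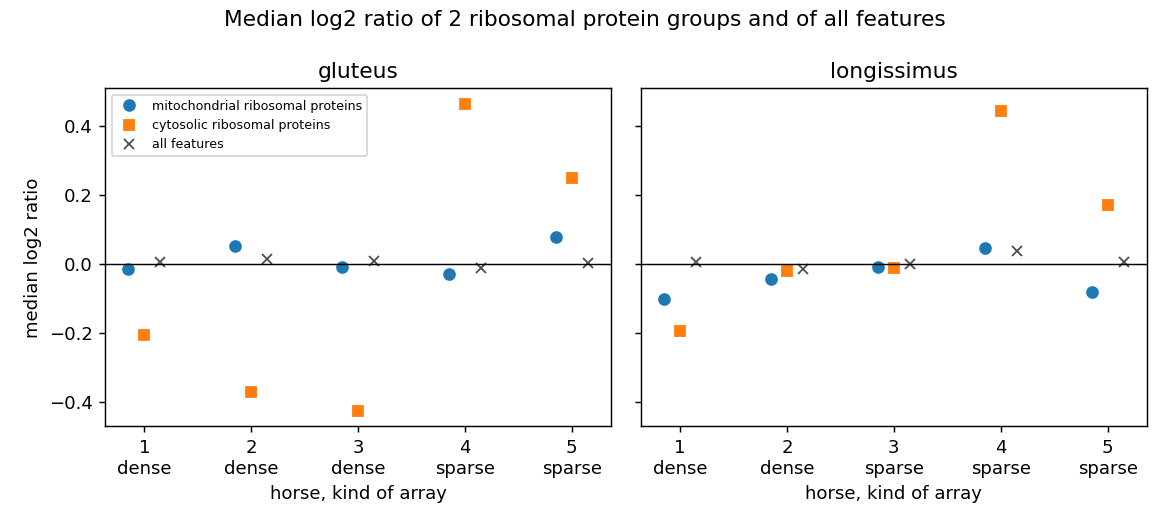
Median log2 ratio of the measured mitochondrial ribosomal protein genes (circles), cytosolic ribosomal protein genes (squares) and all features (crosses) in each horse, for gluteus (left) and longissimus (right). Mitochondrial medians lie between -0.10 and 0.08, and cytosolic medians between -0.43 and 0.46.

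Horses on dense and on sparse arrays were also fitted on their own. In gluteus the member median was -0.0149 (31 above and 39 below 0) in the 3 horses on dense arrays, where all features had 0.0068, and -0.0043 (18 above and 21 below) in the 2 on sparse arrays, where all features had 0.0031. In longissimus it was -0.0983 (27 above and 43 below) in the 2 horses on dense arrays, where all features had -0.0014, and -0.0095 (18 above and 21 below) in the 3 on sparse arrays, where all features had 0.0037. The longissimus median on dense arrays was thus further from 0 than the -0.0430 of all 5 horses. The 2 medians cover different sets, 70 members on dense arrays and the 45 tested members in all 5 horses. Members called numbered 0 in each.

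Agreement between the dye-swapped arrays of a horse and muscle varied widely among horses. Between 26% and 86.5% of member probes had the same sign on both arrays, against 38.1% to 79.8% of all probes. The highest share among the members was in longissimus horse 4 and the lowest in longissimus horse 2. In gluteus horses 2 and 3 and longissimus horses 1 and 2, all on dense arrays, fewer than 50% of member probes agreed, at 30%, 42.5%, 39.7% and 26%.

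The genes that build, feed and maintain these ribosomes were also without a call, at a background of 0% in both muscles. Of 3 tested ribosomal proteins with other names, 3 were above 0 in gluteus and 1 above and 2 below in longissimus. Ptcd3, a small subunit protein, had 0.04 ± 0.25 in gluteus and -0.55 ± 0.22 in longissimus (SE, longissimus unadjusted p = 0.0355, adjusted p = 0.827, limma). Its longissimus values were -0.03, -0.39, -0.31, -1.78 and -0.23, below 0 in every horse and lowest in horse 4. Dap3, a small subunit protein also known from cell death, averaged 0.04 in gluteus and 0.0013 in longissimus, and Aurkaip1, of the small subunit, averaged 0.03 and -0.17.

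Of 4 tested translation factors, 0 were above and 4 below 0 in gluteus, and 4 above and 0 below in longissimus. Means were small: Tsfm, the exchange factor of the elongation factor that delivers transfer RNA, had -0.03 ± 0.18 in gluteus and 0.18 ± 0.18 in longissimus (SE). Mtif2, the initiation factor, had -0.13 and 0.08, and Oxa1l, which inserts new chains into the inner membrane, -0.05 and 0.09. None of the 4 had an unadjusted p under 0.05 in either muscle or in the difference.

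Among 10 tested aminoacyl-tRNA synthetases of mitochondria, 3 were above and 7 below 0 in gluteus and 2 above and 8 below in longissimus. Lars2, which charges leucine transfer RNA, had -0.05, -0.78, -0.27, -0.59 and -1.31 in gluteus and 0.24, 0.26, -1.48, -2.11 and 0.39 in longissimus. All gluteus horses lay below 0, and longissimus divided between 2 very low horses and 3 above 0. Means were -0.60 ± 0.35 in gluteus and -0.54 ± 0.35 in longissimus (SE). The mean of both muscles was -0.57 ± 0.20 (SE, unadjusted p = 0.0237, adjusted p = 0.999, limma), and Lars2 was the only synthetase with an unadjusted p under 0.05 there. Tars2, for threonine, averaged 0.0004 and -0.11, and Cars2, for cysteine, -0.12 and -0.14.

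Of 8 tested assembly and RNA-modifying factors, 4 were above and 4 below 0 in gluteus and 5 above and 3 below in longissimus. Tfb1m, the methyltransferase that modifies the small subunit RNA, had -0.20, -0.03, -0.38, -0.39 and -0.10 in gluteus, a mean of -0.22 ± 0.095 (SE, unadjusted p = 0.0416, adjusted p = 1, limma). It was below 0 in every gluteus horse, and in longissimus it had both signs, with a mean of 0.05. Rpusd4, a pseudouridine synthase, averaged -0.17 in gluteus and -0.01 in longissimus, and Mtg1, a GTPase of large subunit assembly, 0.20 and 0.01.

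For transcription and DNA maintenance, 9 genes were tested, 3 above and 6 below 0 in gluteus and 5 above and 4 below in longissimus. Pnpt1, an RNA-degrading enzyme of mitochondria, had -0.24, 0.08, -0.0043, 0.0006 and 0.02 in gluteus, and 0.27, 0.36, 0.31, 0.49 and 0.12 in longissimus. The muscles did not overlap, with gluteus below longissimus, as in 0.423% of all features, and the gene was named for the smallest p of its list. Its longissimus mean was 0.31 ± 0.074 (SE, unadjusted p = 0.0015, adjusted p = 0.827, limma) and its gluteus minus longissimus difference -0.34 ± 0.10 (SE, unadjusted p = 0.0079, adjusted p = 1, limma).

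Ssbp1, the single-strand DNA binding protein, averaged -0.13 in gluteus and -0.27 in longissimus, and Tfb2m, a partner of the mitochondrial RNA polymerase, 0.07 and 0.44. Longissimus horse 4 had 1.91 for Tfb2m, and the other 4 horses 0.05 to 0.09. Tested regulators of mitochondrial biogenesis numbered 3, all transcription factors, with 2 above and 1 below 0 in each muscle. Nrf1 averaged 0.03 in gluteus and 0.12 in longissimus, Esrra 0.03 and -0.19, and Yy1 -0.17 and 0.34. Of 5 tested genes of mitochondrial proteolysis and quality control, 1 was above and 4 below 0 in each muscle. Phb2, a prohibitin of the inner membrane, averaged -0.05 in gluteus and -0.49 in longissimus, Clpx, the unfolding partner of a matrix protease, -0.15 and -0.12, and Spg7, of an inner membrane protease, -0.02 and -0.27.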

How the data were processed

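The deposited table holds log2 ratios of 2-colour arrays, 24493 probes by 20 arrays, which the authors had normalized by a method not given in the sources used here. Their scale was inferred from the range, -6.6439 (a floor, 707 values) to 9.4043. Per the labels, TRIZOL was used to extract RNA, which was labelled through amino-allyl nucleotides, and results of a dye swap were averaged. Of the probes, 13692 had 1 gene symbol, 0 several and 10801 none. Symbols are in mouse style, and the species of the probes was not given in the sources used here.

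Each array was centred on its median. A horse's value in a muscle is the mean of its dye-swapped arrays, both required, and probes of a symbol were averaged (22988 features). The 10176 features measured in 4 or 5 horses of both muscles were tested against 0 with limma 3.58.1 (R 4.3.3, statmod 1.5.0), Benjamini-Hochberg at 0.05, and 1 fit with muscle as factor. Standard errors come from that fit and share both muscles' spread. The mean of both muscles used 1 value per horse (10063 features). The procedure was tested on simulated data.

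Horse numbers in the labels pair the muscles by animal, and a check of that pairing, the correlation of each horse's 2 deviations from the group means, gave 0.58, 0.304, -0.0976, 0.0206 and -0.00245. In each muscle, members with 1 sign in every horse and those with the 3 highest and 3 lowest means were described horse by horse, with those at an unadjusted p under 0.05. From each other list at most 3 genes with the smallest p are named. Members and lists were chosen with earlier results of these data known. Alternatives changed the orientation, dye, centring, scaling, filter, floor values, probes, variance, pairing and horses, and their effects are given in the closing section.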

Additional observations from a re-analysis of the deposited data

Results flagged for a closer look

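Within the 5 horses (4 where a value was missing) of a muscle, 13 of 74 groups of reported values held a horse far from the others by Dixon's criterion. Chance flags about 1 in 20 groups, and 9.19% of 20352 groups over all features were flagged. Among the members these were longissimus horse 1 for Mrps7 at 0.70 (the others 0.0003 to 0.14), Mrpl10 at 1.08 (-0.35 to 0.06) and Mrpl20 at -2.58 (-0.54 to 0.07), and longissimus horse 4 for Mrpl13 at 1.37 (-0.33 to 0.08). Horse 4 was also set apart in longissimus for Ptcd3 at -1.78 (the others -0.39 to -0.03), Tsfm at 1.17 (-0.23 to 0.07), Tfb2m at 1.91 (0.05 to 0.09), Yy1 at 1.496 (-0.03 to 0.23) and Esrra at -1.10 (-0.18 to 0.19). The remaining values were those of Clpx in longissimus horse 2 at 0.19 (the others -0.25 to -0.20), Dap3 in gluteus horse 5 at -0.23 (0.12 to 0.16), Mtif2 in gluteus horse 5 at -0.86 (0.06 to 0.17) and Pnpt1 in gluteus horse 1 at -0.24 (-0.0043 to 0.08).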

How the results depend on the processing

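No member was called in any comparison under any alternative run. Over all features, calls appeared with Cy3 arrays alone (2 in gluteus, 2 in longissimus), Cy5 arrays alone (4 in gluteus, 92 in longissimus, 7 for the mean of both muscles) and horses on sparse arrays (1 in gluteus, 1 in longissimus, 1 for the mean of both muscles), against 0 otherwise. Member medians moved by less than the spread between horses. Leaving out 1 horse at a time gave medians of -0.0276 to 0.0137 in gluteus, -0.0565 to 0.0051 in longissimus, -0.0008 to 0.0583 for the difference and -0.0357 to -0.0117 for the mean of both muscles, so the sign of the first 3 rested on single horses. The sign also turned in gluteus with either array of a pair (0.0010), in longissimus with 5 horses required (0.0003) and for the mean of both muscles on sparse arrays (0.0087). With horse as a replicate block (a paired fit), 0 features were called and the median of the difference was 0.0216. With probes of sparse arrays alone left out, or each probe on its own, medians were -0.0162 in gluteus and -0.0433 in longissimus over 38 members. The first of these, and leaving out longissimus horses 1 and 4 together, were chosen after seeing the data.

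Some named members changed sign. With the Cy3 array turned in pairs that correlated below 0, Mrpl47 was at 0.15 and Mrps18b at 0.0832 in gluteus, and Mrps7 at -0.13, Mrpl20 at 0.72 and Mrpl39 at -0.0008 in longissimus. Cy3 arrays alone gave Mrps7 -0.10 in gluteus, and Cy5 arrays alone Mrpl20 0.19 in longissimus. Leaving out 1 horse at a time, longissimus Mrps22 ran from -0.0020 to 0.54 and Mrpl13 from -0.0429 to 0.38, lowest without horse 4, and on dense arrays they were at -0.13 and -0.16. On sparse arrays gluteus Mrpl38 was at -0.0406 and Mrpl10 at -0.0173. Without longissimus horses 1 and 4, Mrps18b was at 0.10 and Mrpl39 at -0.0403. The causes were not tested. The block for the mean of both muscles, and each muscle alone for the difference and the mean, were not run, since they leave 1 value per horse or no contrast.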
